A study of Mus musculus with 21 samples.

Results

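The genes of MHC class I antigen presentation described here are *Nlrc5*, *H2-K1*, *H2-D1*, *B2m*, *Tap1*, *Tap2*, *Tapbp*, *Psmb8*, *Psmb9* and *Psmb10*. They were chosen by symbol from the deposited gene table, 10 of its 24454 genes, and all 10 were among the 13719 genes abundant enough to be tested. RNA was sequenced from mouse embryonic fibroblasts in 21 libraries, 3 in each of 7 groups, and every culture had been infected with adenovirus for 96 h when RNA was taken. Cells with floxed *Rtel1*, which encodes a DNA helicase, received virus for GFP (*Rtel1* F/F +GFP), for Cre and GFP, which deletes the floxed gene (*Rtel1* F/F +Cre), or for GFP with TMPyP4, a ligand that stabilizes G4-DNA, at 10 µM for the last 48 h (*Rtel1* F/F +GFP +TMPyP4). Cells with floxed *Rtel1* that also carry a pBabe vector for RTEL1 C1252A/C1255A, a form of RTEL1 with a pair of cysteines replaced by alanine, received virus for GFP (RTEL1 C1252A/C1255A +GFP) or Cre (RTEL1 C1252A/C1255A +Cre). Cells with floxed *Terf1*, which encodes a shelterin protein at telomeres and is Trf1f/f in the labels, received virus for GFP (*Terf1* F/F +GFP) or Cre (*Terf1* F/F +Cre). Each group is thus a cell population under adenovirus, and no uninfected cells or empty-vector cells were sequenced.

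Class I molecules display peptides from inside the cell to cytotoxic T cells and are made by almost all nucleated cells, fibroblasts included. Proteasomes cut proteins into peptides, the transporter TAP carries these into the endoplasmic reticulum, and there tapasin helps load them onto a heavy chain bound to β2-microglobulin. Interferons raise the transcription of these genes and exchange catalytic subunits of the proteasome for inducible counterparts, and NLRC5 is a transactivator of class I genes.

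Total counts per library ranged from 32069888 to 51938593, with a median of 43013208. Levels are given as CPM, counts scaled to the TMM-normalized size of each library, and as RSEM's TPM, which also accounts for transcript length, wherever genes are compared with each other. *Rtel1* had 66.2, 59.1 and 60.2 CPM in *Rtel1* F/F +GFP, 29.9, 31.9 and 26.8 CPM in +Cre and 66.3, 79.0 and 70.9 CPM in TMPyP4-treated libraries. In RTEL1 C1252A/C1255A cells, where reads from the vector can count as *Rtel1*, it had 338, 328 and 331 CPM (GFP) and 283, 253 and 257 CPM (Cre), against 49.1, 47.9 and 50.04 CPM (GFP) and 44.2, 43.7 and 49.7 CPM (Cre) in *Terf1* F/F cells. *Terf1* had 27.9, 29.6 and 30.3 CPM in *Terf1* F/F +GFP libraries, and 5, 2 and 1 counts in +Cre libraries. In the 5 other groups *Terf1* had 28.7, 28.9 and 27.3 CPM (*Rtel1* F/F +GFP), 32.3, 36.3 and 33.5 CPM (+Cre), 32.1, 36.0 and 33.9 CPM (TMPyP4), 34.8, 36.9 and 33.3 CPM (RTEL1 C1252A/C1255A +GFP) and 33.1, 33.8 and 33.3 CPM (RTEL1 C1252A/C1255A +Cre). The floxed gene of each line was thus lower in all of its +Cre libraries, as the labels have it, and *Rtel1* was highest in cells with the vector.

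Of 12 fibroblast markers, 10 averaged 1 CPM or more in each *Rtel1*-floxed group and 12 in each *Terf1*-floxed group, and *Fn1*, fibronectin, was the most abundant in every group. *Thy1* and *Lum* were below 1 CPM in all *Rtel1*-floxed libraries, so these markers of many fibroblasts were near absent there. Summed, the 12 markers had 21699, 20334 and 19622 CPM in *Rtel1* F/F +GFP, 10425, 7583 and 9507 CPM in +Cre and 14463, 10769 and 11982 CPM in TMPyP4-treated libraries. The sums were 12663, 8734 and 9776 CPM (GFP) and 11359.7, 7221 and 7710.1 CPM (Cre) with RTEL1 C1252A/C1255A. In *Terf1* F/F cells they were 31694, 25116 and 24632 CPM (GFP) and 29359.8, 25076 and 27727 CPM (Cre). The sums were thus higher in *Rtel1* F/F +GFP libraries than in all other *Rtel1*-floxed libraries, and their part in the results on class I genes was not tested.

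The *Rtel1* F/F +GFP libraries also stood apart from the other *Rtel1*-floxed libraries in the class I genes. For 8 of the 10 genes, all but *H2-K1* and *B2m*, each of these 3 libraries exceeded all other 12 *Rtel1*-floxed libraries, which held for 18.0% of all genes tested, while 18.3% were below in the same way. *Rtel1* loss, TMPyP4 treatment and the comparisons of lines before Cre all share these libraries, so their values are set side by side and are not independent. Each is therefore also given with the RTEL1 C1252A/C1255A +GFP libraries in their place, an alternative control chosen after seeing the data, whose cells also carry the vector and the mutant. Between the RTEL1 C1252A/C1255A +GFP, *Rtel1* F/F +Cre and TMPyP4-treated groups each pair of same-numbered libraries deviated from its group means with a correlation over 0.1, least for replicate 3. For comparisons of these groups a call or count changed by replicate number as a block, shared by them and RTEL1 C1252A/C1255A +Cre, is therefore given as well. Between *Rtel1* F/F and RTEL1 C1252A/C1255A cells before Cre no other control exists, and the same lines are compared without these libraries after Cre. Bulk RNA cannot tell fewer cells that express a gene from less RNA of that gene per cell. The labels speak of biological replicates but give no record of separate cell isolations, so p-values measure the spread between these libraries.

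On the TPM scale the genes differed widely in level. Over all 21 libraries *B2m* had the highest mean (1564 TPM), followed by *H2-D1* (225 TPM), *Tapbp* (179 TPM) and *H2-K1* (137 TPM). *Psmb10* (34.8 TPM), *Psmb8* (27.3 TPM), *Tap1* (20.9 TPM) and *Tap2* (12.5 TPM) were lower, and *Psmb9* (6.81 TPM) and *Nlrc5* (2.70 TPM) had the lowest levels. These means pool groups of very different level, and the order changed between groups. In *Rtel1* F/F +GFP cells *Tapbp* (331 TPM) exceeded *H2-D1* (270 TPM), and *Tap2* (18.7 TPM) exceeded *Psmb8* (13.9 TPM) and *Tap1* (9.44 TPM). *Tap2* exceeded both in each other *Rtel1*-floxed group as well. *Psmb8* (130 TPM) exceeded *Psmb10* (104 TPM) in *Terf1* F/F +Cre cells, and *Nlrc5* (0.35 TPM) *Psmb9* (0.257 TPM) in RTEL1 C1252A/C1255A +GFP cells. All 10 genes had their highest mean in *Terf1* F/F +Cre libraries. The ratio of the highest to the lowest group mean in CPM, a difference within each gene, was 111 for *Psmb8*, 57.1 for *Tap1*, 41.9 for *Nlrc5* and 17.003 for *Tap2*. It was 7.53 for *Psmb10*, 5.17 for *B2m*, 5.03 for *H2-K1*, 4.60 for *Tapbp* and 4.11 for *H2-D1*. None is given for *Psmb9*, whose lowest group held 3, 6 and 3 counts.

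**Figure D1:**
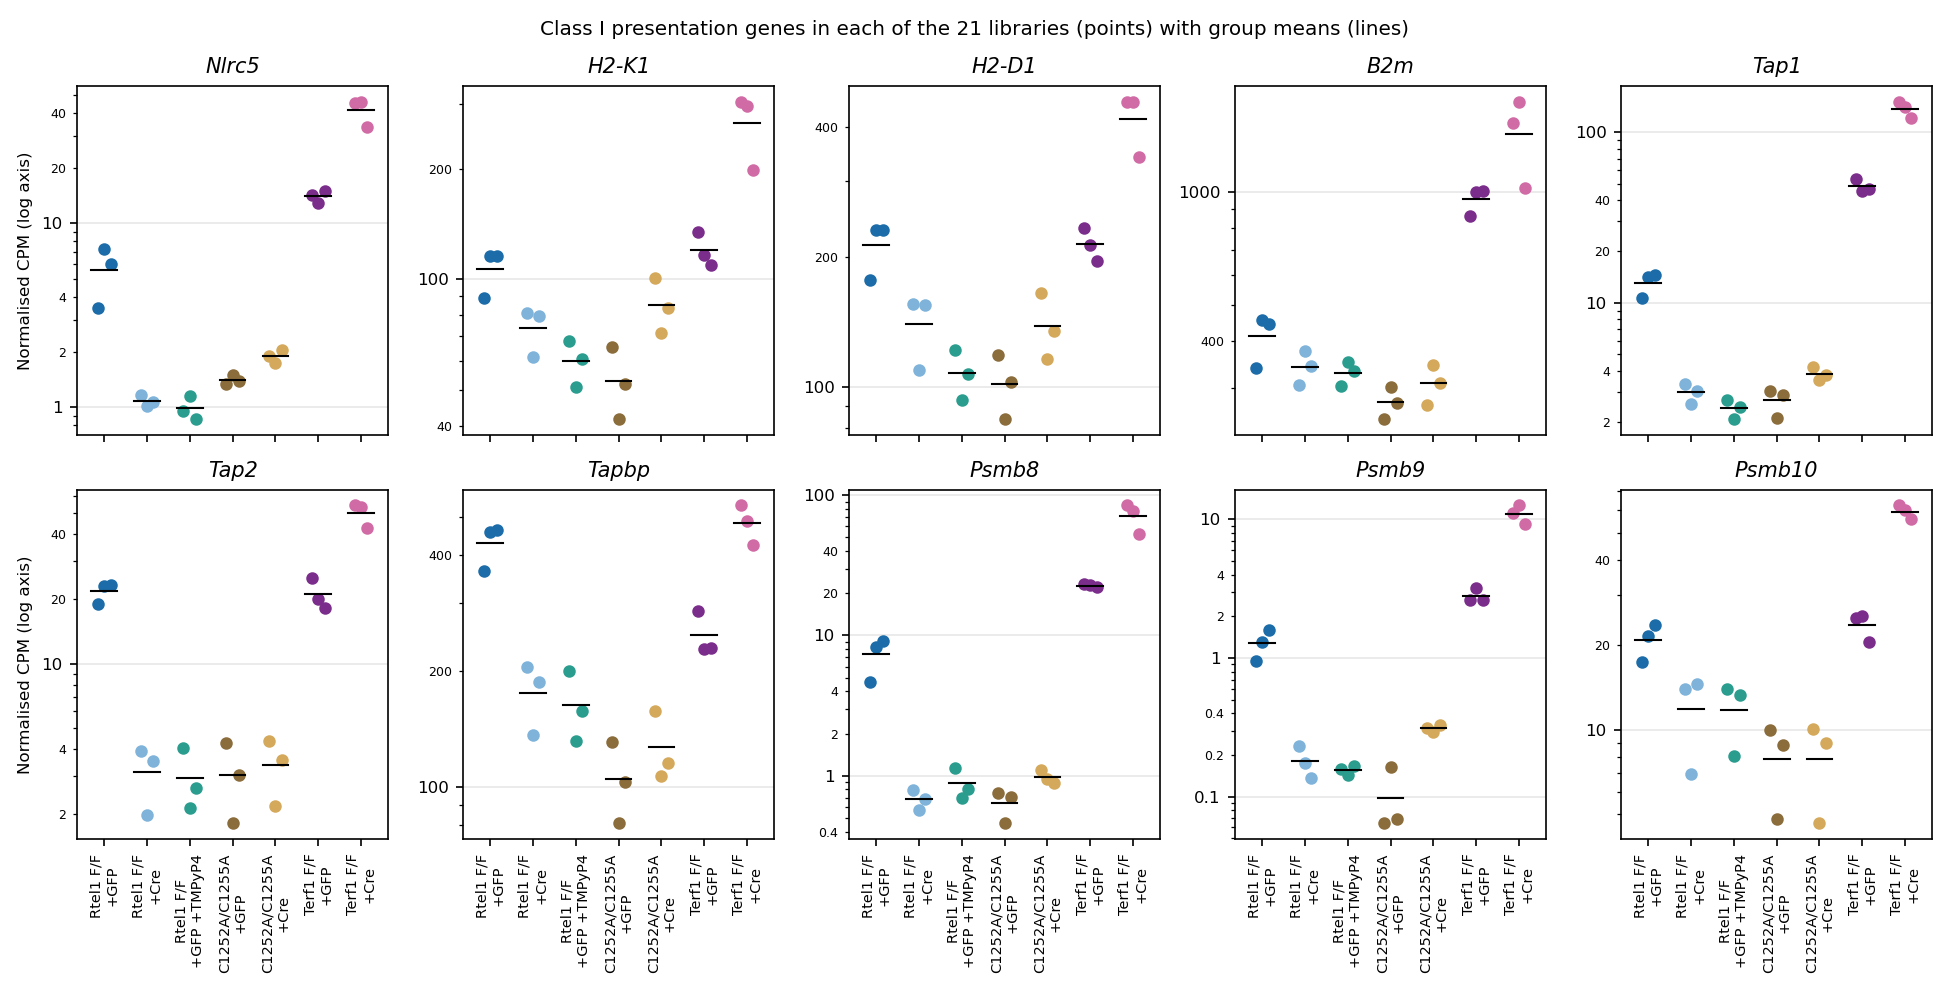
Normalised CPM (log axis) of each class I presentation gene in the 21 libraries, with points for libraries and lines for group means. *Terf1* F/F +Cre libraries have the highest mean of every gene, such as 41.4 CPM of *Nlrc5*.

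*Nlrc5*, the class I transactivator, had 3.45, 7.28 and 6.01 CPM in *Rtel1* F/F +GFP, 1.17, 1.02 and 1.06 CPM in +Cre and 0.951, 1.16 and 0.860 CPM in TMPyP4-treated libraries. Elsewhere it had 1.34, 1.49 and 1.39 CPM (GFP) and 1.901, 1.74 and 2.04 CPM (Cre) with RTEL1 C1252A/C1255A, and 14.2, 12.9 and 15.0 CPM (GFP) and 45.1, 45.8 and 33.4 CPM (Cre) in *Terf1* F/F cells. *Terf1* F/F +Cre libraries were the highest, *Terf1* F/F +GFP libraries came next and *Rtel1* F/F +GFP libraries after them, without overlap between these groups. TMPyP4-treated and *Rtel1* F/F +Cre libraries were the lowest and overlapped each other, below every RTEL1 C1252A/C1255A library. Against *Rtel1* F/F +GFP, the log2 fold change (± SE) of *Nlrc5* was -2.36 ± 0.22 after Cre (BH-adjusted p = 6.84e-08, edgeR quasi-likelihood). With TMPyP4 it was -2.49 ± 0.22 (BH-adjusted p = 1.82e-07, edgeR quasi-likelihood). With RTEL1 C1252A/C1255A +GFP libraries as the control these values were -0.37 ± 0.23 and -0.50 ± 0.24, and neither passed the test at an adjusted p of at most 0.01 (BH-adjusted p = 0.372 and 0.131, edgeR quasi-likelihood), the threshold used throughout. Cre in RTEL1 C1252A/C1255A cells gave 0.43 ± 0.22 (BH-adjusted p = 0.398, edgeR quasi-likelihood), although all 3 +Cre libraries exceeded all 3 +GFP libraries. After *Terf1* loss *Nlrc5* rose from 14.0 ± 1.09 to 41.4 ± 6.94 CPM (SD, n = 3), by 1.56 ± 0.18 on the log2 scale (BH-adjusted p = 1.39e-05, edgeR quasi-likelihood).

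*H2-K1*, which encodes a classical class I heavy chain, had 89.0, 115 and 115 CPM in *Rtel1* F/F +GFP, 80.9, 61.3 and 79.4 CPM in +Cre and 68.0, 51.0 and 60.8 CPM in TMPyP4-treated libraries. It had 65.4, 41.6 and 51.8 CPM (GFP) and 101, 71.3 and 83.4 CPM (Cre) with RTEL1 C1252A/C1255A, and 134, 116 and 109.7 CPM (GFP) and 304, 297 and 198 CPM (Cre) in *Terf1* F/F cells. *Terf1* F/F +Cre libraries were above all others, while the ranges of each other pair of neighbouring groups overlapped. *H2-K1* did not pass the test after *Rtel1* loss (-0.53 ± 0.19, BH-adjusted p = 0.0266, edgeR quasi-likelihood). It fell with TMPyP4 (-0.83 ± 0.19, BH-adjusted p = 0.00226, edgeR quasi-likelihood), a call lost without TMPyP4 replicate 2 (BH-adjusted p = 0.0163, edgeR quasi-likelihood). The alternative control gave positive values, 0.48 ± 0.19 and 0.18 ± 0.19, and not past the threshold, but with the replicate block *H2-K1* was called as higher after *Rtel1* loss (0.49 ± 0.10, BH-adjusted p = 0.00179, edgeR quasi-likelihood). The other classical heavy chain gene, *H2-D1*, ranged from 176 to 231 CPM in *Rtel1* F/F +GFP, 109 to 155 CPM in +Cre and 93.2 to 122 CPM in TMPyP4-treated libraries. In RTEL1 C1252A/C1255A cells it ranged from 83.9 to 118 CPM (GFP) and 116 to 165 CPM (Cre), and in *Terf1* F/F cells from 195 to 233 CPM (GFP) and 341 to 457 CPM (Cre). *Terf1* F/F +GFP and *Rtel1* F/F +GFP libraries overlapped below *Terf1* F/F +Cre and above all others. *H2-D1* fell after *Rtel1* loss (-0.61 ± 0.17, BH-adjusted p = 0.00672, edgeR quasi-likelihood). That call was lost without +Cre replicate 2, +GFP replicate 2 or +GFP replicate 3 (BH-adjusted p = 0.0276, 0.0197 and 0.0186, edgeR quasi-likelihood). With TMPyP4 the fall was -0.99 ± 0.17 (BH-adjusted p = 0.000231, edgeR quasi-likelihood). *H2-D1*, set against RTEL1 C1252A/C1255A +GFP, had 0.46 ± 0.17 after Cre and 0.08 ± 0.17 with TMPyP4, and was not called, but the block gave a call after Cre (0.46 ± 0.09, BH-adjusted p = 0.00125, edgeR quasi-likelihood). After *Terf1* loss *H2-K1* rose by 1.15 ± 0.19 (BH-adjusted p = 0.000916, edgeR quasi-likelihood) and *H2-D1* by 0.97 ± 0.17 (BH-adjusted p = 0.00163, edgeR quasi-likelihood). Without *Terf1* F/F +GFP replicate 3 the call of *H2-D1* was lost (BH-adjusted p = 0.0142, edgeR quasi-likelihood). Cre with RTEL1 C1252A/C1255A gave 0.69 ± 0.19 for *H2-K1* and 0.45 ± 0.17 for *H2-D1*, neither past the threshold (BH-adjusted p = 0.0627 and 0.21, edgeR quasi-likelihood). With the block over 4 groups both passed, at 0.70 ± 0.10 and 0.45 ± 0.09 (BH-adjusted p = 0.000427 and 0.00536, edgeR quasi-likelihood). Class I heavy chains are close paralogs, and at 75 bases, the read length in the study's methods, 6.15% of all stretches in the basic GENCODE vM21 transcripts of *H2-D1* also occur in another gene, against 1.12% for *H2-K1*. At 101 bases, the read length in the labels, the shares were 4.04% and 0%, and RSEM splits reads of such stretches between genes.

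*B2m* encodes β2-microglobulin, the light chain of every class I molecule, and had 339.7, 457 and 445 CPM in *Rtel1* F/F +GFP, 306, 376 and 344 CPM in +Cre and 305, 352 and 333 CPM in TMPyP4-treated libraries. There were 248, 303 and 275 CPM (GFP) and 272, 346 and 310.5 CPM (Cre) with RTEL1 C1252A/C1255A, and 860.4, 998 and 1001 CPM (GFP) and 1522, 1730.1 and 1025 CPM (Cre) in *Terf1* F/F cells. Both *Terf1* F/F groups exceeded all *Rtel1*-floxed libraries, and the ranges of neighbouring *Rtel1*-floxed groups overlapped. *B2m* did not pass the test after *Rtel1* loss (-0.27 ± 0.16, BH-adjusted p = 0.147, edgeR quasi-likelihood) or with TMPyP4 (-0.33 ± 0.16, BH-adjusted p = 0.104, edgeR quasi-likelihood). The alternative control gave 0.31 ± 0.16 and 0.26 ± 0.16, with no overlap between groups and no call. In RTEL1 C1252A/C1255A cells Cre gave 0.17 ± 0.16 (BH-adjusted p = 0.774, edgeR quasi-likelihood). After *Terf1* loss every +Cre library exceeded every +GFP library, but the log2 fold change of 0.58 ± 0.16 missed the threshold (BH-adjusted p = 0.033, edgeR quasi-likelihood). It passed without *Terf1* F/F +Cre replicate 3, the lowest of its group (0.77, BH-adjusted p = 0.00274, edgeR quasi-likelihood).

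*Tap1*, for a subunit of the peptide transporter, had 10.7, 14.2 and 14.5 CPM in *Rtel1* F/F +GFP, 3.33, 2.56 and 3.06 CPM in +Cre and 2.69, 2.07 and 2.46 CPM in TMPyP4-treated libraries. Its levels were 3.06, 2.12 and 2.88 CPM (GFP) and 4.19, 3.51 and 3.75 CPM (Cre) with RTEL1 C1252A/C1255A, and 52.9, 45.3 and 46.5 CPM (GFP) and 150.5, 141 and 121 CPM (Cre) in *Terf1* F/F cells. *Terf1* F/F +Cre, *Terf1* F/F +GFP and *Rtel1* F/F +GFP libraries formed separate levels in falling order, and all other libraries lay below them. Among the low groups, RTEL1 C1252A/C1255A +Cre stood above the others without overlap. *Tap2*, for the other transporter subunit, had 18.9, 23.02 and 23.2 CPM in *Rtel1* F/F +GFP, 3.94, 1.99 and 3.52 CPM in +Cre and 4.06, 2.14 and 2.65 CPM in TMPyP4-treated libraries. Libraries with the vector and of the other line had 4.28, 1.82 and 3.04 CPM (GFP) and 4.35, 2.18 and 3.57 CPM (Cre) with RTEL1 C1252A/C1255A, and 25.0, 20.1 and 18.2 CPM (GFP) and 54.4, 53.5 and 42.6 CPM (Cre) in *Terf1* F/F cells. Here *Rtel1* F/F +GFP and *Terf1* F/F +GFP libraries overlapped, *Terf1* F/F +Cre libraries were higher, and the low groups all overlapped. After *Rtel1* loss *Tap1* fell by 2.14 ± 0.15 (BH-adjusted p = 2.96e-09, edgeR quasi-likelihood) and *Tap2* fell by 2.78 ± 0.31 (BH-adjusted p = 1.21e-06, edgeR quasi-likelihood) on the log2 scale. With TMPyP4 *Tap1* fell by 2.45 ± 0.15 (BH-adjusted p = 4.29e-09, edgeR quasi-likelihood) and *Tap2* fell by 2.89 ± 0.31 (BH-adjusted p = 2.86e-06, edgeR quasi-likelihood). Set against the alternative control, *Tap1* had 0.15 ± 0.16 after Cre and -0.17 ± 0.16 with TMPyP4, and *Tap2* had 0.04 ± 0.32 and -0.07 ± 0.32, with overlapping groups and no call. Cre with RTEL1 C1252A/C1255A gave 0.50 ± 0.16 for *Tap1* (BH-adjusted p = 0.0889, edgeR quasi-likelihood) and 0.14 ± 0.31 for *Tap2* (BH-adjusted p = 0.963, edgeR quasi-likelihood). *Tap1* rose after *Terf1* loss from 48.2 ± 4.10 to 137 ± 14.8 CPM (SD, n = 3), or by 1.51 ± 0.13 in log2 (BH-adjusted p = 1.14e-06, edgeR quasi-likelihood). For *Tap2* the value of 1.25 ± 0.28 just missed the threshold (BH-adjusted p = 0.0108, edgeR quasi-likelihood), with no overlap between groups.

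*Tapbp*, for tapasin, which bridges the transporter and the empty class I molecule, ranged from 363 to 462 CPM in *Rtel1* F/F +GFP, 136 to 204 CPM in +Cre and 132 to 201 CPM in TMPyP4-treated libraries. It ranged from 80.9 to 131 CPM (GFP) and 107 to 158 CPM (Cre) with RTEL1 C1252A/C1255A, and from 228 to 285 CPM (GFP) and 423 to 536 CPM (Cre) in *Terf1* F/F cells. *Rtel1* F/F +GFP libraries overlapped *Terf1* F/F +Cre libraries and lay above *Terf1* F/F +GFP libraries without overlap, an order that no other of the 10 genes had. *Tapbp* fell after *Rtel1* loss (-1.28 ± 0.20, BH-adjusted p = 5.17e-05, edgeR quasi-likelihood) and with TMPyP4 (-1.39 ± 0.21, BH-adjusted p = 4.77e-05, edgeR quasi-likelihood). The sign turned against RTEL1 C1252A/C1255A +GFP, to 0.74 ± 0.20 and 0.64 ± 0.20, with no overlap between groups but no call (BH-adjusted p = 0.0208 and 0.0269, edgeR quasi-likelihood). With the replicate block *Tapbp* was called as higher in both, at 0.75 ± 0.08 and 0.64 ± 0.08 (BH-adjusted p = 4.5e-06 and 1.28e-05, edgeR quasi-likelihood). Cre with RTEL1 C1252A/C1255A gave 0.27 ± 0.20 (BH-adjusted p = 0.662, edgeR quasi-likelihood). *Tapbp* rose after *Terf1* loss by 0.96 ± 0.20 (BH-adjusted p = 0.00653, edgeR quasi-likelihood). This call was lost without *Terf1* F/F +Cre replicate 1 or 2 (BH-adjusted p = 0.0265 and 0.0176, edgeR quasi-likelihood). It was also lost without +GFP replicate 1, 2 or 3 (BH-adjusted p = 0.0114, 0.0289 and 0.0416, edgeR quasi-likelihood).

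*Psmb8*, for the inducible subunit β5i of the immunoproteasome, had 4.65, 8.28 and 9.07 CPM in *Rtel1* F/F +GFP, 0.792, 0.571 and 0.682 CPM in +Cre and 1.14, 0.699 and 0.812 CPM in TMPyP4-treated libraries. Its other levels were 0.754, 0.461 and 0.708 CPM (GFP) and 1.10, 0.957 and 0.892 CPM (Cre) with RTEL1 C1252A/C1255A, and 23.2, 22.8 and 22.03 CPM (GFP) and 84.4, 76.7 and 53.1 CPM (Cre) in *Terf1* F/F cells. Both *Terf1* F/F groups and *Rtel1* F/F +GFP formed separate levels, and the other groups lay near 1 CPM or below. *Psmb9*, for subunit β1i, had 0.957, 1.295 and 1.60 CPM in *Rtel1* F/F +GFP, 0.233, 0.174 and 0.136 CPM in +Cre and 0.159, 0.145 and 0.167 CPM in TMPyP4-treated libraries. Further values were 0.0646, 0.163 and 0.0685 CPM (GFP) and 0.314, 0.295 and 0.329 CPM (Cre) with RTEL1 C1252A/C1255A, and 2.64, 3.20 and 2.63 CPM (GFP) and 11.1, 12.6 and 9.32 CPM (Cre) in *Terf1* F/F cells. The same 3 groups were high and separate, and RTEL1 C1252A/C1255A +Cre libraries lay above the remaining low libraries. The RTEL1 C1252A/C1255A +GFP libraries held only 3, 6 and 3 counts of *Psmb9*, at or near the 3 counts taken as not measurable above 0, so fold changes against them are imprecise. *Psmb10*, for subunit β2i, ranged from 17.4 to 23.4 CPM in *Rtel1* F/F +GFP, 6.97 to 14.5 CPM in +Cre and 8.05 to 13.9 CPM in TMPyP4-treated libraries. With RTEL1 C1252A/C1255A it ranged from 4.83 to 9.99 CPM (GFP) and 4.66 to 10.0 CPM (Cre), and in *Terf1* F/F cells from 20.5 to 25.3 CPM (GFP) and 55.7 to 62.4 CPM (Cre). *Terf1* F/F +GFP and *Rtel1* F/F +GFP libraries overlapped, and all other *Rtel1*-floxed libraries were lower.

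After *Rtel1* loss *Psmb8* fell from 7.34 ± 2.36 to 0.682 ± 0.111 CPM (SD, n = 3), and its log2 value fell by 3.42 ± 0.26 (BH-adjusted p = 1.05e-08, edgeR quasi-likelihood). *Psmb9* had -2.80 ± 0.26 (BH-adjusted p = 7.87e-08, edgeR quasi-likelihood), and *Psmb10* had -0.81 ± 0.31 and was not called (BH-adjusted p = 0.0341, edgeR quasi-likelihood). With TMPyP4 the values were -3.07 ± 0.26 for *Psmb8* (BH-adjusted p = 1.13e-07, edgeR quasi-likelihood) and -3.02 ± 0.27 for *Psmb9* (BH-adjusted p = 2.16e-07, edgeR quasi-likelihood). *Psmb10*, at -0.83 ± 0.31 with TMPyP4, was not called (BH-adjusted p = 0.0408, edgeR quasi-likelihood). For *Psmb8*, *Psmb9* and *Psmb10* the alternative control gave 0.07 ± 0.32, 0.93 ± 0.40 and 0.58 ± 0.31 after Cre, and 0.42 ± 0.31, 0.71 ± 0.41 and 0.57 ± 0.32 with TMPyP4. All 6 pairs of groups overlapped, and none was called without the replicate block. With it *Psmb10* was called as higher after Cre (0.58 ± 0.10, BH-adjusted p = 0.000495, edgeR quasi-likelihood) and with TMPyP4 (0.59 ± 0.10, BH-adjusted p = 0.000188, edgeR quasi-likelihood). *Psmb9* had, with RTEL1 C1252A/C1255A and Cre, 1.69 ± 0.35, just short of the threshold (BH-adjusted p = 0.0121, edgeR quasi-likelihood). Without RTEL1 C1252A/C1255A +GFP replicate 2, the highest of its group, *Psmb9* was called (2.18, BH-adjusted p = 0.00693, edgeR quasi-likelihood). *Psmb8* and *Psmb10* had 0.60 ± 0.30 and 0.00048 ± 0.32 there. After *Terf1* loss *Psmb8* rose by 1.66 ± 0.20 (BH-adjusted p = 3.05e-05, edgeR quasi-likelihood) and *Psmb9* by 1.96 ± 0.17 (BH-adjusted p = 1.11e-06, edgeR quasi-likelihood). *Psmb10* had 1.33 ± 0.31 and missed the threshold (BH-adjusted p = 0.0124, edgeR quasi-likelihood), with all +Cre above all +GFP libraries.

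Each inducible subunit takes the place of a constitutive counterpart, *Psmb8* of *Psmb5*, *Psmb9* of *Psmb6* and *Psmb10* of *Psmb7*, and its share of the pair's summed TPM was computed for each library. *Psmb8* made up 3.14, 5.42 and 5.38% in *Rtel1* F/F +GFP, 0.438, 0.492 and 0.387% in +Cre and 0.753, 0.545 and 0.535% in TMPyP4-treated libraries. In RTEL1 C1252A/C1255A cells it made up 0.455, 0.317 and 0.403% (GFP) and 0.622, 0.628 and 0.495% (Cre), and in *Terf1* F/F cells 13.6, 13.7 and 15.3% (GFP) and 36.4, 35.8 and 24.8% (Cre). In TPM *Psmb5* thus stayed the more abundant of the pair in every library, even with *Terf1* deleted. The mean share (± SD, n = 3) of *Psmb9* was 1.27% ± 0.242 in *Rtel1* F/F +GFP and 0.154% ± 0.0405 in +Cre cells, and 3.06% ± 0.210 and 10.4% ± 2.14 in *Terf1* F/F +GFP and +Cre cells. For *Psmb10* the means were 9.71% ± 1.48, 3.56% ± 1.46, 9.17% ± 0.885 and 20.1% ± 0.801 in the same groups. With TMPyP4 they were 0.153% ± 0.00733 (*Psmb9*) and 4.43% ± 1.33 (*Psmb10*). In RTEL1 C1252A/C1255A cells *Psmb9* had 0.0901% ± 0.0597 (GFP) and 0.264% ± 0.0165 (Cre), and *Psmb10* 2.48% ± 0.987 (GFP) and 2.36% ± 1.01 (Cre). The mean shares of both were thus lower in RTEL1 C1252A/C1255A +GFP than in *Rtel1* F/F +Cre or TMPyP4-treated cells. *Psmb5* and *Psmb6* were not called after *Rtel1* loss (0.07 ± 0.13 and 0.26 ± 0.12) or *Terf1* loss (0.12 ± 0.13 and 0.10 ± 0.12). *Psmb7* rose after *Rtel1* loss (0.76 ± 0.08, BH-adjusted p = 6.99e-07, edgeR quasi-likelihood) and with TMPyP4 (0.40 ± 0.08, BH-adjusted p = 0.000945, edgeR quasi-likelihood), and against RTEL1 C1252A/C1255A +GFP had 0.05 ± 0.08 and -0.31 ± 0.08, neither called, although the replicate block gave a call of lower *Psmb7* with TMPyP4 (-0.30 ± 0.05, BH-adjusted p = 0.000242, edgeR quasi-likelihood).

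**Figure D2:**
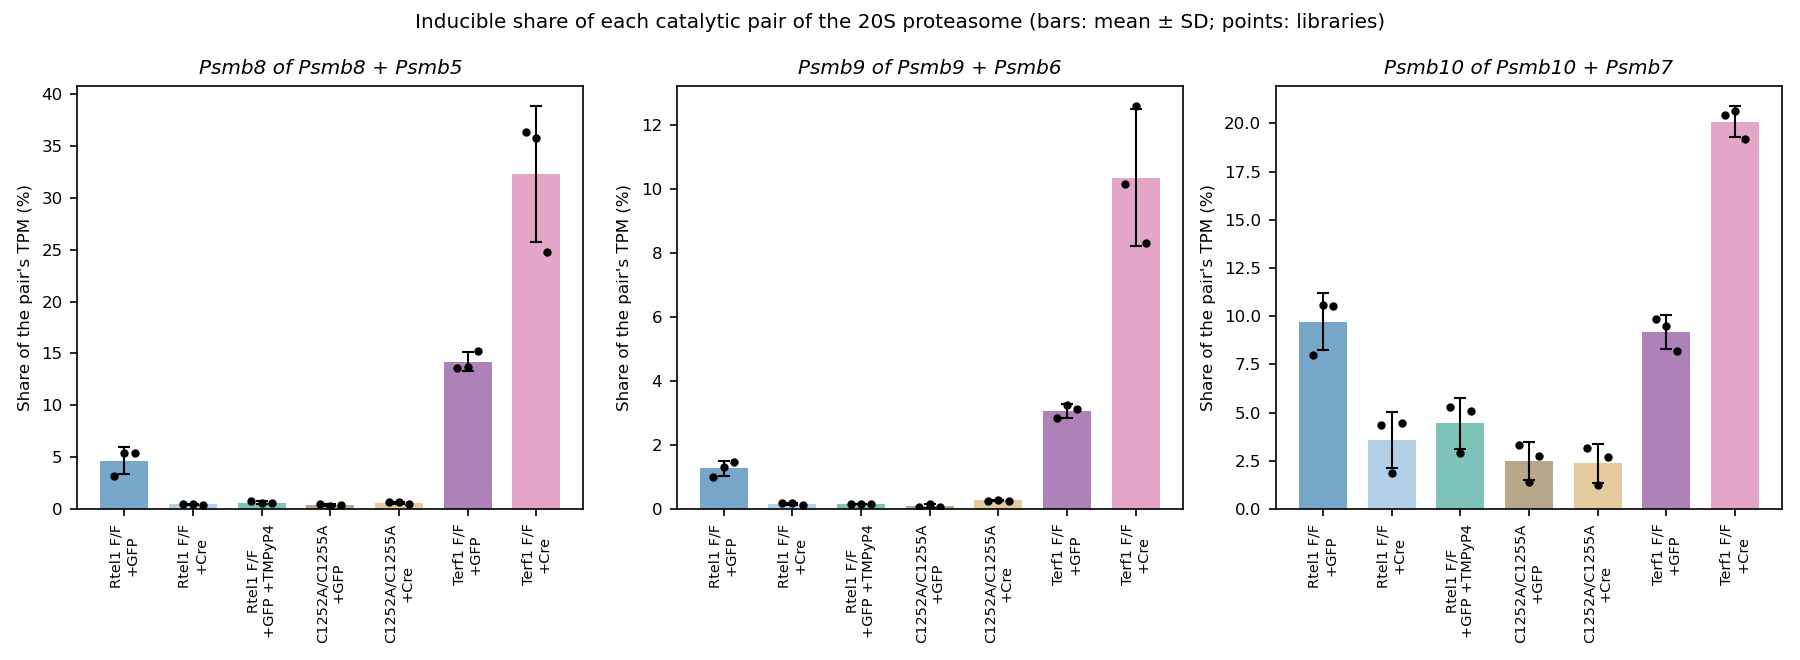
Share (%) of the inducible gene in the summed TPM of each inducible and constitutive pair, as mean ± SD (bars) with each library as a point. The share of *Psmb8* is 32.3% ± 6.54 in *Terf1* F/F +Cre cells, and under 1% in *Rtel1*-floxed cells other than *Rtel1* F/F +GFP.

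After *Rtel1* loss most class I genes were lower than in *Rtel1* F/F +GFP cells. Of the 10 genes 7 fell and 0 rose, against 21.04% of all genes tested that fell and 21.98% that rose, and *H2-K1*, *B2m* and *Psmb10* were not called. Their median log2 fold change was -1.71, against -0.03 for all genes tested, and values reached from -3.42 (*Psmb8*) to -0.27 (*B2m*). In 9 genes, all but *B2m*, every +Cre library was below every +GFP library, as in 32.1% of all genes tested. Set against RTEL1 C1252A/C1255A +GFP, the same +Cre libraries had 0 class I genes called by edgeR (3 at an unadjusted p under 0.05, 1 by DESeq2). Of all genes edgeR called 7.76% there, with 24.7% at an unadjusted p under 0.05, and DESeq2 8.69%. The median over the 10 genes was then 0.39, against 0.0048 for all genes tested. With the replicate block 4 of the 10 genes were called there, *H2-K1*, *H2-D1*, *Tapbp* and *Psmb10*, all higher, against 6.59% of all genes tested that were higher and 5.98% that were lower. Class I genes thus fell against the *Rtel1* F/F +GFP libraries, and no fall was called against RTEL1 C1252A/C1255A +GFP.

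TMPyP4-treated cells, which keep *Rtel1*, were set against the same *Rtel1* F/F +GFP libraries. Of the 10 genes 8 fell and 0 rose, all but *B2m* and *Psmb10*, against 13.4% of all genes tested that fell and 16.6% that rose. The median log2 fold change was -1.92, against -0.01 for all genes tested, from -3.07 (*Psmb8*) to -0.33 (*B2m*). In 9 genes every treated library was below every +GFP library, as in 28.5% of all genes tested. The alternative control left 0 of the 10 genes called by edgeR (2 at an unadjusted p under 0.05, 1 by DESeq2). There edgeR called 17.01% of all genes (37.98% at an unadjusted p under 0.05), and DESeq2 20.1%. The median of the 10 genes was 0.22 there, against 0.01 for all genes tested. The replicate block gave 2 calls, *Tapbp* and *Psmb10*, both higher, against 16.8% of all genes tested that were higher and 11.8% that were lower. Setting *Rtel1* F/F +Cre directly against TMPyP4-treated cells, which also differ in adenovirus, gave 0 of the 10 genes called by edgeR (1 at an unadjusted p under 0.05, 0 by DESeq2). Of all genes 15.2% were called there by edgeR (35.7% at an unadjusted p under 0.05) and 17.3% by DESeq2. With the block over 4 groups 1 of the 10, *H2-D1*, was called as higher after Cre (0.37 ± 0.09, BH-adjusted p = 0.00332, edgeR quasi-likelihood), against 10.9% of all genes tested that were higher and 15.4% that were lower. Log2 fold changes of +Cre over TMPyP4 lay between -0.35 (*Psmb8*) and 0.38 (*H2-D1*), with a median of 0.12 against -0.0027 for all genes tested, and every pair of groups overlapped. The others had 0.30 (*H2-K1*), 0.05 (*B2m*), 0.31 (*Tap1*), 0.11 (*Tap2*), 0.11 (*Tapbp*), 0.22 (*Psmb9*), 0.01 (*Psmb10*) and 0.13 (*Nlrc5*).

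In cells with RTEL1 C1252A/C1255A, Cre removes the floxed copies of *Rtel1* and leaves the mutant. The values of all 10 genes were positive, but edgeR called 0 (4 at an unadjusted p under 0.05), and DESeq2 called 1, *H2-K1*. Of all genes edgeR called 1.09% (14.2% at an unadjusted p under 0.05) and DESeq2 2.42%. In 5 genes, *H2-K1*, *Tap1*, *Psmb8*, *Psmb9* and *Nlrc5*, each +Cre library exceeded each +GFP library, as in 9.04% of all genes tested. The median was 0.44, against 0.0049 for all genes tested, and 1 gene, *Psmb9*, was called without RTEL1 C1252A/C1255A +GFP replicate 2 (BH-adjusted p = 0.00693, edgeR quasi-likelihood). Same-numbered libraries of these groups deviated alike from their group means, and with replicate number as a block within each line 0 of the 10 genes were called by edgeR. With the block shared over 4 groups edgeR called 2, *H2-K1* and *H2-D1*, both higher, against 1.25% of all genes tested that were higher and 1.59% that were lower. In that fit the fibroblast markers *Col3a1* (-0.83 ± 0.06), *Pdgfrb* (-0.44 ± 0.07) and *Postn* (-1.04 ± 0.21) were called as lower, and no other fibroblast marker was called. *Krt18*, an epithelial marker, was called as higher (0.70 ± 0.15). The part of these markers was not tested.

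*Terf1* loss, a model of telomere dysfunction in which *Rtel1* is kept, went with higher levels of the class I genes. Of the 10 genes 7 rose, against 2.65% of all genes tested that rose, and *B2m*, *Tap2* and *Psmb10* missed the threshold. The median log2 fold change was 1.29, against 0.0012 for all genes tested, from 0.58 (*B2m*) to 1.96 (*Psmb9*). In all 10 genes each +Cre library exceeded each +GFP library, as in 13.1% of all genes tested. With each of the 6 libraries left out in turn, between 5 and 8 of the genes were called.

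**Figure D3:**
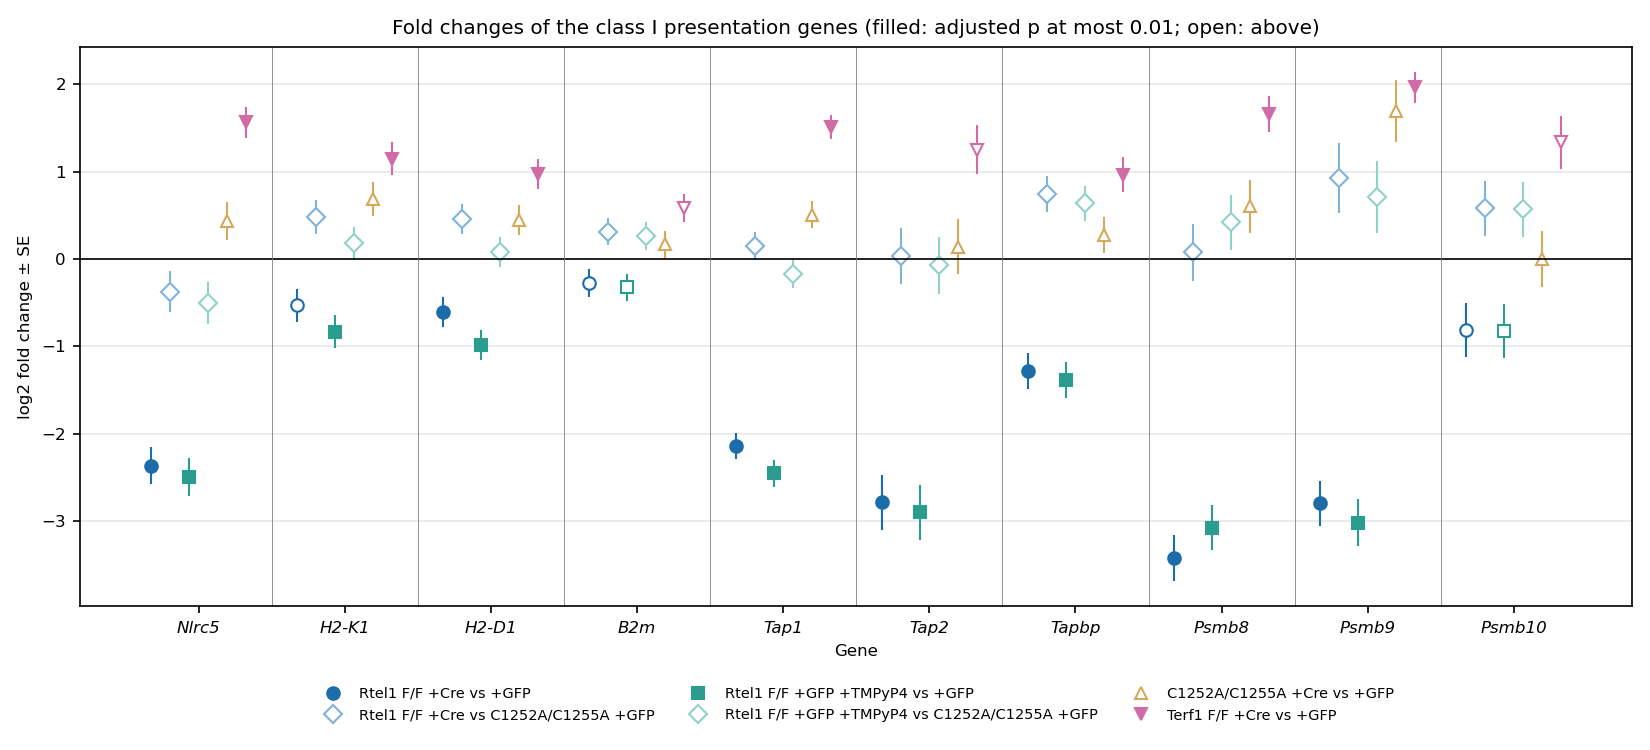
Log2 fold change ± SE of each class I presentation gene in 4 comparisons and, for *Rtel1* loss and TMPyP4, against RTEL1 C1252A/C1255A +GFP (diamonds, without a replicate block), with filled symbols at a BH-adjusted edgeR p of at most 0.01. Values of *Psmb8* against the +GFP cells of the same line range from -3.42 after *Rtel1* loss to 1.66 after *Terf1* loss.

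Whether the effect of Cre differed between lines was tested as a difference of log2 fold changes. The effect in *Rtel1* F/F cells minus that in RTEL1 C1252A/C1255A cells was called for 8 of the 10 genes, all negative, against 12.3% of all genes tested, with *B2m* (-0.44) and *Psmb10* (-0.82) not called. Those called were -1.22 (*H2-K1*), -1.05 (*H2-D1*), -2.64 (*Tap1*), -2.92 (*Tap2*), -1.55 (*Tapbp*), -4.02 (*Psmb8*), -4.48 (*Psmb9*) and -2.80 (*Nlrc5*). The median was -2.10, against -0.05 for all genes tested, and the most negative value was -4.48 ± 0.44 for *Psmb9* (BH-adjusted p = 1.02e-06, edgeR quasi-likelihood), imprecise for the few counts of its RTEL1 C1252A/C1255A +GFP libraries. With RTEL1 C1252A/C1255A +GFP libraries as the control of both lines, the difference becomes that of *Rtel1* F/F +Cre against RTEL1 C1252A/C1255A +Cre cells. Without a replicate block edgeR called 0 of the 10 genes there (4 at an unadjusted p under 0.05), and DESeq2 called 0. Among all genes 4.30% were called by edgeR (16.9% at an unadjusted p under 0.05) and 5.14% by DESeq2. The largest value was -0.81 ± 0.23 for *Nlrc5* (BH-adjusted p = 0.0364, edgeR quasi-likelihood), and the median was -0.16.

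The effect in *Rtel1* F/F cells minus that in *Terf1* F/F cells was negative and called for all 10 genes, against 14.5% of all genes tested. It was most negative for *Psmb8*, at -5.08 ± 0.33 (BH-adjusted p = 5.1e-09, edgeR quasi-likelihood), with -1.68 (*H2-K1*), -1.57 (*H2-D1*), -3.65 (*Tap1*), -4.03 (*Tap2*), -2.25 (*Tapbp*), -4.76 (*Psmb9*), -2.15 (*Psmb10*) and -3.93 (*Nlrc5*), and the median was -2.95, against -0.05 for all genes tested. The call of *B2m* (-0.86 ± 0.22, BH-adjusted p = 0.00479, edgeR quasi-likelihood) was lost without any 1 of 8 libraries, *Rtel1* F/F +Cre replicate 1 or 3, *Rtel1* F/F +GFP replicate 2 or 3, *Terf1* F/F +Cre replicate 1 or 2 or *Terf1* F/F +GFP replicate 1 or 2, with BH-adjusted p between 0.0129 and 0.0236 (edgeR quasi-likelihood). With RTEL1 C1252A/C1255A +GFP as the control of *Rtel1* F/F +Cre cells and no replicate block, 2 genes were called, both negative, against 2.73% of all genes tested. They were *Nlrc5* (-1.94 ± 0.29, BH-adjusted p = 0.000289, edgeR quasi-likelihood) and *Tap1* (-1.37 ± 0.21, BH-adjusted p = 0.000275, edgeR quasi-likelihood), and all 10 values were negative, with a median of -0.90. The effect in *Terf1* F/F cells minus that in RTEL1 C1252A/C1255A cells, which uses no *Rtel1* F/F +GFP library, was positive for all 10 genes, with a median of 0.85, against -0.01 for all genes tested. edgeR called 0 of them (7 at an unadjusted p under 0.05), and DESeq2 called 1, *Tap1*. Among all genes 0.620% were called by edgeR (10.3% at an unadjusted p under 0.05) and 1.43% by DESeq2. The values were 0.46 (*H2-K1*), 0.52 (*H2-D1*), 0.41 (*B2m*), 1.11 (*Tap2*), 0.69 (*Tapbp*), 1.05 (*Psmb8*), 0.27 (*Psmb9*), 1.33 (*Psmb10*) and 1.13 (*Nlrc5*). *Tap1* had 1.01 ± 0.20 (BH-adjusted p = 0.0141, edgeR quasi-likelihood) and was called without RTEL1 C1252A/C1255A +GFP replicate 2 or without *Terf1* F/F +Cre replicate 3 (BH-adjusted p = 0.00535 and 0.00749, edgeR quasi-likelihood).

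Before Cre, the cells already differed in class I genes. RTEL1 C1252A/C1255A +GFP cells had lower levels of all 10 genes than *Rtel1* F/F +GFP cells, each called, against 22.1% of all genes tested that were lower. The median log2 fold change was -2.01, against -0.03 for all genes tested, from -3.72 ± 0.29 for *Psmb9* (BH-adjusted p = 9.72e-09, edgeR quasi-likelihood) to -0.59 ± 0.16 for *B2m* (BH-adjusted p = 0.00414, edgeR quasi-likelihood), with -1.01 (*H2-K1*), -1.07 (*H2-D1*), -2.28 (*Tap1*), -2.82 (*Tap2*), -2.02 (*Tapbp*), -3.50 (*Psmb8*), -1.39 (*Psmb10*) and -1.99 (*Nlrc5*) between. In all 10 genes every RTEL1 C1252A/C1255A +GFP library was below every *Rtel1* F/F +GFP library, as in 33.0% of all genes tested. The call of *B2m* was lost without any 1 of 4 libraries, RTEL1 C1252A/C1255A +GFP replicate 1 or 3 or *Rtel1* F/F +GFP replicate 2 or 3 (BH-adjusted p between 0.022 and 0.0391, edgeR quasi-likelihood). The vector, the mutant and any difference between the starting cells cannot be told apart here, as the study credits these 2 lines to separate earlier work and does not say whether they share 1 isolate. *Terf1* F/F +GFP cells, against *Rtel1* F/F +GFP cells, had 5 genes higher, against 30.3% of all genes tested, and 1 gene lower, against 24.5%. *Tap1* (1.87 ± 0.14), *Psmb8* (1.63 ± 0.21), *Nlrc5* (1.33 ± 0.19), *B2m* (1.20 ± 0.16) and *Psmb9* (1.13 ± 0.18) were higher, and *Tapbp* (-0.79 ± 0.20) was lower. The call of *Tapbp* was lost without *Terf1* F/F +GFP replicate 3 (BH-adjusted p = 0.0133, against 0.00254 with all libraries, edgeR quasi-likelihood). *H2-K1* (0.17 ± 0.19), *H2-D1* (0.01 ± 0.17), *Tap2* (-0.04 ± 0.28) and *Psmb10* (0.18 ± 0.30) were not called, and the median was 0.66, against 0.02 for all genes tested. *Terf1* F/F +GFP cells, set against RTEL1 C1252A/C1255A +GFP cells, had all 10 genes higher, against 31.9% of all genes tested, from 1.07 ± 0.17 (*H2-D1*) to 5.12 ± 0.27 (*Psmb8*), with a median of 2.28 and 1.18 (*H2-K1*), 1.79 (*B2m*), 4.16 (*Tap1*), 2.78 (*Tap2*), 1.24 (*Tapbp*), 4.85 (*Psmb9*), 1.57 (*Psmb10*) and 3.32 (*Nlrc5*) between. The lines differ in more than the floxed gene, and these differences cannot be told apart.

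Other genes of the pathway were followed in hand-written lists, each described by its counts and its median. Their counts of calls stand beside 21.04% of all genes tested that fell and 21.98% that rose after *Rtel1* loss, 13.4% and 16.6% with TMPyP4, and 2.65% that rose after *Terf1* loss. With the alternative control they stand beside 7.76% of all genes called in either direction after *Rtel1* loss and 17.01% with TMPyP4, and with the replicate block beside 6.59% higher and 5.98% lower, and 16.8% higher and 11.8% lower. Of 25 further heavy chain genes, such as the nonclassical H2-Q and H2-T genes, 15 were tested. After *Rtel1* loss 10 of them fell, against 21.04% of all genes tested (median log2 fold change -1.20, against -0.03 for all genes tested), and with TMPyP4 7 fell, against 13.4% (median -0.85, against -0.01). *H2-Q4* fell from 31.2 ± 9.23 to 3.59 ± 0.601 CPM (SD, n = 3) after *Rtel1* loss (-3.12 ± 0.23, BH-adjusted p = 6.83e-09, edgeR quasi-likelihood) and fell by 3.10 ± 0.23 with TMPyP4 (BH-adjusted p = 3.33e-08, edgeR quasi-likelihood). *Fcgrt*, for the neonatal Fc receptor that pairs with β2-microglobulin, fell from 55.0 ± 11.7 to 11.8 ± 2.34 CPM (SD, n = 3) after *Rtel1* loss (-2.22 ± 0.19, BH-adjusted p = 3.01e-08, edgeR quasi-likelihood). *H2-Q7* and *H2-Q8* had 0 counts in all TMPyP4 libraries and are given no fold change there. After *Terf1* loss 9 of the 15 rose, against 2.65% (median 0.89, against 0.0012), *H2-Q4* from 32.3 ± 2.24 to 88.7 ± 19.5 CPM (SD, n = 3; 1.46 ± 0.20, BH-adjusted p = 0.00014, edgeR quasi-likelihood). In RTEL1 C1252A/C1255A cells Cre gave 0 of 15 called by edgeR (4 at an unadjusted p under 0.05, 0 by DESeq2; median 0.33, against 0.0049). With the replicate block *H2-Q8* had a log2 fold change near 0 there, given without an SE, and was not called. With the alternative control, 1 of the 15 genes, *H2-T10*, was called after *Rtel1* loss, higher by 0.77 ± 0.15, and the median was 0.25. With TMPyP4, *H2-T9* (0.39 ± 0.10) and *Fcgrt* (0.92 ± 0.18) were higher, while *H2-Q4* had -0.0013 ± 0.23 after *Rtel1* loss and 0.02 ± 0.23 with TMPyP4 and was not called. The replicate block raised the count with TMPyP4 from 2 to 6 of the 15, all higher.

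Of 13 genes for peptide loading and trimming, after *Rtel1* loss 4 rose and 1 fell (median 0.16), and with TMPyP4 1 rose and 2 fell (median -0.12), beside 21.98% of all genes tested that rose and 21.04% that fell, and 16.6% and 13.4% with TMPyP4. Medians here and below stand beside -0.03 (*Rtel1* loss), -0.01 (TMPyP4) and 0.0012 (*Terf1* loss) for all genes tested, and with the alternative control beside 0.0048 and 0.01. *Tapbpl*, for the tapasin-related editor TAPBPR, fell in both, by 1.09 and, with TMPyP4, fell by 0.66, and rose by 0.70 ± 0.11 after *Terf1* loss (BH-adjusted p = 0.0004, edgeR quasi-likelihood). Set against RTEL1 C1252A/C1255A +GFP it had 0.19 ± 0.11 after *Rtel1* loss and 0.62 ± 0.11 with TMPyP4, of which the TMPyP4 value was called. *Erap1*, for the aminopeptidase that trims peptides in the endoplasmic reticulum, rose after *Terf1* loss by 0.54 ± 0.10 (BH-adjusted p = 0.00262, edgeR quasi-likelihood), the only other gene of the 13 called there, and the median was 0.10. The chaperone genes *Calr*, *Canx* and *Pdia3* had 0.16 ± 0.09, 0.37 ± 0.08 and 0.38 ± 0.12 after *Rtel1* loss, of which *Canx* passed the test, along with *Sec61g* (0.81 ± 0.14) and *Ide* (0.37 ± 0.09). Of 9 genes for proteasome activators and assembly 5 rose and 0 fell after *Rtel1* loss (median 0.36), led by *Pomp* (0.91 ± 0.14, BH-adjusted p = 3.87e-05, edgeR quasi-likelihood) and *Psme3* (0.70 ± 0.08). With TMPyP4 3 rose (median 0.24). *Psme1*, for an interferon-inducible activator subunit, was the 1 gene of the 9 called after *Terf1* loss (0.81 ± 0.09, BH-adjusted p = 5.75e-06, edgeR quasi-likelihood), and its partner *Psme2* had 0.56 ± 0.16 (BH-adjusted p = 0.0518, edgeR quasi-likelihood). Of 14 genes of the constitutive proteasome core 11 rose and 0 fell after *Rtel1* loss (median 0.55), led by *Psma2* (0.93 ± 0.10), *Psma5* (0.86 ± 0.11) and *Psma3* (0.85 ± 0.10). With TMPyP4 5 of the 14 rose (median 0.29), and after *Terf1* loss edgeR called 0 (0 at an unadjusted p under 0.05, 0 by DESeq2). With the alternative control edgeR called 0 of the 14 after *Rtel1* loss (0 at an unadjusted p under 0.05, 0 by DESeq2; median 0.03), and 4 fell with TMPyP4 (median -0.27). Of the loading genes it called 0 after *Rtel1* loss (2 at an unadjusted p under 0.05, 0 by DESeq2), with 2 higher and 2 lower with TMPyP4, and of the activator and assembly genes *Psme1* was higher in both (0.38 ± 0.09 and 0.45 ± 0.09). With the replicate block these counts became, after *Rtel1* loss, 1 higher loading gene, *Erap1* (0.41 ± 0.09), and 2 higher activator and assembly genes. With TMPyP4 they became 2 higher and 3 lower loading genes, 3 higher and 3 lower activator and assembly genes and 9 lower core genes.

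Transcription factors of class I genes were a list of 15. After *Rtel1* loss 5 fell, against 21.04% of all genes tested, and 0 rose (median -0.18). With TMPyP4 3 fell, against 13.4% (median -0.15), and after *Terf1* loss 4 rose, against 2.65% (median 0.0042). *Stat2* had -1.10 ± 0.09 after *Rtel1* loss, -0.59 ± 0.09 with TMPyP4 and 0.84 ± 0.09 after *Terf1* loss, each called. *Irf1*, an activator of class I genes, had -0.33 ± 0.09 after *Rtel1* loss (BH-adjusted p = 0.00569, edgeR quasi-likelihood), -0.25 ± 0.09 with TMPyP4 (BH-adjusted p = 0.0416, edgeR quasi-likelihood) and 0.69 ± 0.09 after *Terf1* loss (BH-adjusted p = 9.35e-05, edgeR quasi-likelihood). *Irf2* had -0.23 ± 0.08, -0.15 ± 0.08 and 0.37 ± 0.08, of which the last was called. *Rfx5*, a partner of NLRC5 at class I promoters, was not called in any of the 3 (-0.03 ± 0.09, -0.05 ± 0.09 and 0.30 ± 0.09). *Bcl3* had -1.62 ± 0.29 after *Rtel1* loss (BH-adjusted p = 0.000159, edgeR quasi-likelihood). Set against RTEL1 C1252A/C1255A +GFP *Stat2* had -0.10 ± 0.09 after *Rtel1* loss, not called, and 0.41 ± 0.09 with TMPyP4, called, and *Irf1* was higher in both (0.54 ± 0.09 and 0.62 ± 0.09). In that setting 1 of the 15 was called after *Rtel1* loss, and 4 were higher and 1 lower with TMPyP4.

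Of 10 genes for interferon receptors and feedback 7 fell after *Rtel1* loss, against 21.04% of all genes tested (median -0.52), and 6 fell with TMPyP4, against 13.4% (median -0.42). After *Terf1* loss 1 rose, against 2.65% (median -0.01). *Usp18*, which restrains interferon receptor signaling, had -2.89 ± 0.17, -2.26 ± 0.16 and 1.03 ± 0.11 in these 3 comparisons, each called, but -0.15 ± 0.22 and 0.48 ± 0.21 against RTEL1 C1252A/C1255A +GFP, neither called. *Socs3* fell after *Rtel1* loss (-1.53 ± 0.15) and with TMPyP4 (-1.20 ± 0.15), and against RTEL1 C1252A/C1255A +GFP had -0.40 ± 0.15 and -0.07 ± 0.15, not called. Of 12 interferon genes 11 were in the table and 2 were tested. *Ifnb1* rose after *Terf1* loss from 0.228 ± 0.0620 to 1.40 ± 0.571 CPM (SD, n = 3; 2.61 ± 0.44, BH-adjusted p = 0.00117, edgeR quasi-likelihood). *Ifna4*, the other gene tested, had 5, 5 and 7 counts in *Terf1* F/F +GFP and 12, 24 and 17 counts in +Cre libraries. In the *Rtel1*-floxed libraries *Ifna4* had 0 counts and *Ifnb1* had 0 to 3, so no change of either can be tested there. With the alternative control, 0 of the 10 receptor and feedback genes were called after *Rtel1* loss (2 at an unadjusted p under 0.05, 0 by DESeq2), and 2 were higher with TMPyP4, while the replicate block gave 1 higher after *Rtel1* loss, *Socs1* (0.54 ± 0.14), and 3 with TMPyP4. Cre with RTEL1 C1252A/C1255A gave 0 calls by edgeR in the lists of loading genes (0 at an unadjusted p under 0.05), activator and assembly genes (0), core genes (2), transcription factors (2) and receptors and feedback (0), and DESeq2 called 0 in each.

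Class II genes, which mark professional antigen-presenting cells, were mostly low, with *Cd74* and *H2-DMb1* (11.7 CPM) the highest in *Rtel1* F/F +GFP cells. Of 11 genes 3 were tested, 8 were never above 1 CPM, among them the transactivator *Ciita*, and *H2-Eb2* and *H2-Ob* had 0 counts in all libraries. Their summed level was 22.9, 44.8 and 43.1 CPM in *Rtel1* F/F +GFP, 6.88, 6.63 and 7.70 CPM in +Cre and 7.48, 7.52 and 7.31 CPM in TMPyP4-treated libraries. The sums were 3.23, 3.15 and 4.07 CPM (GFP) and 5.51, 5.23 and 6.01 CPM (Cre) with RTEL1 C1252A/C1255A, and 3.06, 3.63 and 4.34 CPM (GFP) and 4.87, 5.50 and 4.31 CPM (Cre) in *Terf1* F/F cells. *Cd74*, the invariant chain, was the most abundant in *Rtel1* F/F +GFP cells (20.9 CPM) and fell after *Rtel1* loss (-2.67 ± 0.24) and with TMPyP4 (-2.32 ± 0.23). *H2-DMb1* (-2.37 ± 0.20 and -2.52 ± 0.20) and *H2-DMa* (-1.50 ± 0.20 and -1.80 ± 0.21) fell in both as well. Against the alternative control *Cd74* (1.77 ± 0.26 and 2.12 ± 0.26) was higher in both, *H2-DMb1* was higher after *Rtel1* loss (0.89 ± 0.22) and not called with TMPyP4 (0.74 ± 0.22), and *H2-DMa* was not called in either (0.24 ± 0.22 and -0.06 ± 0.22). In *Terf1* F/F cells, where class I genes were high, class II sums were thus below those of every *Rtel1* F/F library without the vector, and edgeR called 0 of the 3 after *Terf1* loss (1 at an unadjusted p under 0.05, 0 by DESeq2). Cre with RTEL1 C1252A/C1255A gave 0 class II genes called by edgeR (1 at an unadjusted p under 0.05, 1 by DESeq2).

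Most markers of other cell types were never above 1 CPM in any library. Of 12 leukocyte markers 9 were never above 1 CPM, *Ptprc* among them, and *Adgre1* and *Cd3e* had 0 counts in all libraries. Their sums were 6.86, 7.05 and 7.19 CPM in *Rtel1* F/F +GFP, 14.8, 10.5 and 13.7 CPM in +Cre and 8.65, 8.26 and 8.62 CPM in TMPyP4-treated libraries. They were 10.0, 8.55 and 9.73 CPM (GFP) and 11.3, 9.92 and 10.8 CPM (Cre) with RTEL1 C1252A/C1255A, and 8.49, 9.24 and 9.63 CPM (GFP) and 10.09, 10.6 and 10.12 CPM (Cre) in *Terf1* F/F cells. *Cd14* was the most abundant with floxed *Rtel1*, with group means of 5.20 to 9.54 CPM, and *Cd68* with floxed *Terf1* (4.84 CPM with GFP and 6.04 CPM with Cre), and the sums were lowest in *Rtel1* F/F +GFP cells, where class I genes were higher than in the other *Rtel1*-floxed cells. Endothelial markers summed to 0.401 to 0.555 CPM in *Rtel1* F/F +GFP, 0.676 to 0.943 CPM in +Cre and 0.434 to 0.539 CPM in TMPyP4-treated libraries, 0.480 to 0.895 CPM (GFP) and 1.01 to 1.29 CPM (Cre) with RTEL1 C1252A/C1255A, and 2.39 to 2.87 CPM (GFP) and 4.12 to 4.83 CPM (Cre) in *Terf1* F/F cells. Of the 8 endothelial markers 7 were never above 1 CPM, and *Kdr*, the most abundant over all libraries, rose after *Terf1* loss (0.90 ± 0.18, BH-adjusted p = 0.00481, edgeR quasi-likelihood). Epithelial markers summed to 3.09 to 3.21 CPM in *Rtel1* F/F +GFP, 5.06 to 7.37 CPM in +Cre and 3.16 to 4.32 CPM in TMPyP4-treated libraries, 5.24 to 7.49 CPM (GFP) and 7.22 to 9.92 CPM (Cre) with RTEL1 C1252A/C1255A, and 1.96 to 2.67 CPM (GFP) and 3.71 to 4.82 CPM (Cre) in *Terf1* F/F cells. Of these 8 markers 5 were never above 1 CPM, and *Krt19* was the most abundant over all libraries. *Cdh1* was the most abundant in *Rtel1* F/F +GFP cells, at 1.36 CPM, against 0.118 CPM in +Cre, 0.433 CPM in TMPyP4-treated, 0.333 CPM (GFP) and 0.295 CPM (Cre) in RTEL1 C1252A/C1255A cells. It was thus higher in *Rtel1* F/F +GFP than in other *Rtel1*-floxed cells, as most class I genes were, but had 0.181 CPM (GFP) and 0.398 CPM (Cre) in *Terf1* F/F cells. *Krt19* was lower in *Rtel1* F/F +GFP cells (0.537 CPM) than in +Cre (3.75 CPM), TMPyP4-treated (2.13 CPM) and RTEL1 C1252A/C1255A cells (4.15 CPM with GFP, 5.42 CPM with Cre). *Krt18* had 0.949, 2.14, 0.847, 1.25 and 2.04 CPM in these groups, in the same order. Of the 12 fibroblast markers 2 rose and 8 fell after *Rtel1* loss, beside 21.98% and 21.04% of all genes tested, and 7 fell with TMPyP4, beside 13.4%. With the alternative control 2 were up and 2 down after *Rtel1* loss and 1 up and 1 down with TMPyP4, the latter 4 up and 1 down with the replicate block. The part of any of these markers in the results was not tested.

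Across the 21 libraries, which share 7 groups, the log2 CPM of the genes moved together, with Pearson correlations from 0.69 to 0.99 over 45 pairs of genes and a median of 0.92. No range for other pairs of genes is given beside these, and the groups differed in many other genes too. Candidates for likeness were the 11840 tested genes that averaged 1 CPM or more. For each class I gene the 3 others most like it are given, as a description over 21 libraries. They were *Tap1* (0.99), *Psmb8* (0.98) and *Psmb9* (0.98) for *Nlrc5*, and *Psmb8* (0.99), *Nlrc5* (0.99) and *Parp14* (0.99) for *Tap1*. Most like *Psmb8* were *Tap1* (0.99), *Gpr107* (0.98) and *Gbp6* (0.98), and most like *Psmb9* were *Psmb8* (0.98), *Tap1* (0.98) and *Nlrc5* (0.98). *Tap1* was thus among the closest genes of the other 3. *H2-K1* was most like *H2-D1* (0.99), *Hap1* (0.94) and *H2-T22* (0.94), and *H2-D1* most like *H2-K1* (0.99), *B4galt5* (0.96) and *Asap3* (0.95). *B2m* stood closest to *Nmi* (0.99), *Rnf135* (0.99) and *Gbp3* (0.99), and *Tap2* to *H2-Q4* (0.99), *B4galt5* (0.98) and *Pcsk7* (0.97). For *Tapbp* they were *Ltbp2* (0.97), *9530068E07Rik* (0.97) and *Itm2c* (0.96), and for *Psmb10* *Asap3* (0.97), *Trafd1* (0.96) and *Tcirg1* (0.96), none of them a class I presentation gene of the 10.

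In RefSeq's annotation of GRCm38.p6, the assembly that mm10 is built from, 7 of the 10 genes lie on chromosome 17, in the major histocompatibility complex. From the start of the chromosome they are *Tapbp* (33919478 to 33929290), *H2-K1* (33996012 to 34000619), *Psmb9* (34182030 to 34187330), *Tap1* (34187556 to 34197225), *Psmb8* (34198195 to 34201454), *Tap2* (34204479 to 34216321) and *H2-D1* (35263094 to 35267497). *B2m* lies on chromosome 2 (122147687 to 122153082), and *Nlrc5* (94434335 to 94527272) and *Psmb10* (105935728 to 105938392) on chromosome 8. *Psmb9*, *Tap1*, *Psmb8* and *Tap2* lie within 34.3 kb, and 225 bases separate *Psmb9* from *Tap1*. A window of 200 kb to each side of these 4 genes, chosen after their values were seen, held 14 tested genes, of which 9 are not among the 10. Of these 9 neighbours 3 fell after *Rtel1* loss, against 21.04% of all genes tested (median log2 fold change -0.77, against -0.03), and 3 fell with TMPyP4, against 13.4% (median -0.43, against -0.01). They were *Rxrb*, *H2-DMa* and *H2-DMb1* after *Rtel1* loss, and *AA388235*, *H2-DMa* and *H2-DMb1* with TMPyP4, and these names, too, were chosen after their values were seen. Of the 9, 6 were lower and 1 was higher in RTEL1 C1252A/C1255A +GFP than in *Rtel1* F/F +GFP cells (median -0.79, against -0.03), beside 22.1% of all genes tested that were lower. With the alternative control 1 of the 9 was higher after *Rtel1* loss (median 0.10) and 1 was lower with TMPyP4 (median -0.00762), while the replicate block gave 2 higher and 1 lower with TMPyP4. After *Terf1* loss 0 of the 9 were called by edgeR (2 at an unadjusted p under 0.05, 0 by DESeq2; median 0.02), while *Psmb9*, *Tap1* and *Psmb8* rose.

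Because the genes moved together, their promoters were searched on both strands for 5 short motifs, in windows of 250 bases before to 50 after a transcript start from RefSeq (GRCm38.p6). The table held 9 windows for 8 of the 10 genes, without *Tap2* and *Nlrc5*. The 2 starts used for *H2-K1* lie 272 and 286 bases inside the gene as positioned above, while those of the other 7 genes lie at its first base. GAAANNGAAA, 1 spelling of the interferon-stimulated response element, occurred in 1 gene, *B2m*, and in 3.44% of all 32851 promoters. Other spellings of this element were not searched, so the other windows are not shown to lack it. The gamma-activated site, spelled TTCNNNGAA, occurred in 1, *Psmb8*, and in 8.30%. The Y box CCAAT occurred in 6 (*H2-K1*, *H2-D1*, *B2m*, *Tap1*, *Tapbp* and *Psmb9*), and in 37.4%. TGACG followed 10 to 40 bases on by ATTGG, the reverse complement of CCAAT, an arrangement chosen after seeing the sequences, occurred in 3 (*H2-K1*, *H2-D1* and *B2m*), and in 0.965%. A quadruplex motif, 4 runs of at least 3 G with loops of 1 to 7 bases, occurred in 4 (*H2-K1*, *H2-D1*, *Tap1* and *Psmb9*), and in 18.6%. The windows of *Tap1* and *Psmb9* share 275 of their 300 bases, and their matches of CCAAT and of the quadruplex motif are the same bases, counted once for each gene. A match describes letters in the window and is not a measured binding site. The heavy chain and light chain windows are printed since they share the spaced arrangement, and that of *Tap1* since it also covers most of the window of its neighbour *Psmb9*. They are chr17:34000298-34000597 (minus strand) for *H2-K1*, chr17:35262844-35263143 (plus strand) for *H2-D1*, chr2:122147437-122147736 (plus strand) for *B2m* and chr17:34187306-34187605 (plus strand) for *Tap1*. Each is printed 5′ to 3′, with capitals for CCAAT, for both ends of the spaced arrangement and for GAAANNGAAA.
H2-K1: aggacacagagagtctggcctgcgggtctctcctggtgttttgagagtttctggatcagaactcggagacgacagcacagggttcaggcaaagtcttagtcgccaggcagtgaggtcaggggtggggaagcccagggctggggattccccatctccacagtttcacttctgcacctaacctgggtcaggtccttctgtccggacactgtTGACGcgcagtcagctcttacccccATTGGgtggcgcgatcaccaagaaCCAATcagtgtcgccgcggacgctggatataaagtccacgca
H2-D1: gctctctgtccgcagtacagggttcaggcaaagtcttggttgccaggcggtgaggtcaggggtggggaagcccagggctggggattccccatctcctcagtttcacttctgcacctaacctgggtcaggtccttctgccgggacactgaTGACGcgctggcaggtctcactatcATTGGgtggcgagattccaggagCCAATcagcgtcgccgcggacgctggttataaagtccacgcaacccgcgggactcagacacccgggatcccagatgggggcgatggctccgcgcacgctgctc
B2m: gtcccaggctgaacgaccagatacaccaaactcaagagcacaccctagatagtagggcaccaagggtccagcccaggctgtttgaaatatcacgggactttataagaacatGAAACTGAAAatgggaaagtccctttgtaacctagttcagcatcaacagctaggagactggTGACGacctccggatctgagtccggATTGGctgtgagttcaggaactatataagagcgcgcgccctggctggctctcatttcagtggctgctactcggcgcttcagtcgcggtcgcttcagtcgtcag
Tap1: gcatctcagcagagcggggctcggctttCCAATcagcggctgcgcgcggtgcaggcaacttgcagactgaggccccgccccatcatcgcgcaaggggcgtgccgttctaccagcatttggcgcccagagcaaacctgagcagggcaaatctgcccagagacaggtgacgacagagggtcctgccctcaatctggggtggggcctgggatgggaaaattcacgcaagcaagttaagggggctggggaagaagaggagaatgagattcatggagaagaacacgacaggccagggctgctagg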

How the data were processed

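Embryonic mouse fibroblasts in 7 groups gave 21 strand-specific mRNA libraries. The expected counts were deposited by the authors as whole numbers from RSEM 1.3.0, after trimming with cutadapt 1.9.1 and alignment to mm10 with STAR 2.5.2a and RefSeq genes. The TPM values deposited by the authors beside them are RSEM's estimates, corrected for transcript length and scaled to the same sum in every library. The values were checked against these units, and nothing contradicted them. RSEM assigns reads that fit several genes by expectation, which matters for class I heavy chains.

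From the counts, genes were kept with edgeR's filterByExpr by group (13719 of 24454), scaled by TMM and tested by edgeR 4.0.16 (R 4.3.3) with a robust quasi-likelihood fit of all 21 libraries, 1 coefficient per group and 14 residual degrees of freedom. P-values were adjusted by Benjamini and Hochberg (BH) over all genes tested, with calls at an adjusted p of at most 0.01, and the SE is the log2 fold change divided by the root of F. CPM use TMM sizes, and log2 CPM for correlations a prior count of 2. Tables and figures were made with Python 3.11.15, pandas 2.3.3, numpy 2.4.6 and matplotlib 3.10.9. The fit was tested on simulated counts with known changes. Between 32069888 and 51938593 counts per library leave genes near 3 counts, such as *Psmb9* with RTEL1 C1252A/C1255A and GFP, poorly measured.

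All 10 genes are named in every comparison of the main fit. From each further list at most 3 called genes with the largest rise and 3 with the largest fall per comparison are named, along with the constitutive counterparts of the inducible subunits and a short set of pathway genes, whether called or not. The members and lists were chosen with earlier results of these data known. Replicate numbers were checked by correlating same-numbered libraries' deviations from their group means over 11840 genes. The pairs correlated at 0.86, 0.84 and 0.42 between the RTEL1 C1252A/C1255A groups, at 0.72, 0.76 and 0.41 for TMPyP4-treated and *Rtel1* F/F +Cre libraries, and with RTEL1 C1252A/C1255A +GFP libraries at 0.78, 0.81 and 0.20 for *Rtel1* F/F +Cre, 0.78, 0.69 and 0.30 for TMPyP4-treated and 0.83, 0.36 and 0.26 for *Terf1* F/F +GFP libraries, so the numbers pair these by the data, all correlations being over 0.1, while the labels name no shared batch. Of the last 3 sets, 2 are less clear, as *Rtel1* F/F +Cre replicate 3 correlated better with RTEL1 C1252A/C1255A +GFP replicate 1 (0.36) and *Terf1* F/F +GFP replicate 3 with RTEL1 C1252A/C1255A +GFP replicate 2 (0.66) than with their own numbers. Alternatives were DESeq2 1.42.0 with its own size factors, edgeR with these in place of TMM, all genes with any count, only the groups compared, replicate number as a block within each line, a threshold of 0.05, each library left out in turn and, added after seeing the data, RTEL1 C1252A/C1255A +GFP libraries in place of *Rtel1* F/F +GFP libraries, and the block shared by the *Rtel1* F/F +Cre, TMPyP4-treated and both RTEL1 C1252A/C1255A groups (and *Terf1* F/F +GFP for lines before Cre). Positions and promoter sequences are from RefSeq (GRCm38.p6), and the search for shared stretches used the basic GENCODE vM21 transcripts.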

Additional observations from a re-analysis of the deposited data

Results flagged for a closer look

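The response to Cre differed between lines by a test of the difference itself, and this is what drew attention to the values here. The log2 fold change in *Rtel1* F/F cells minus that in RTEL1 C1252A/C1255A cells was -1.22 for *H2-K1*, -1.05 for *H2-D1*, -2.64 for *Tap1*, -2.92 for *Tap2*, -1.55 for *Tapbp*, -4.02 for *Psmb8*, -4.48 for *Psmb9* and -2.80 for *Nlrc5*. Minus that in *Terf1* F/F cells it was -1.68 for *H2-K1*, -1.57 for *H2-D1*, -0.86 for *B2m*, -3.65 for *Tap1*, -4.03 for *Tap2*, -2.25 for *Tapbp*, -5.08 for *Psmb8*, -4.76 for *Psmb9*, -2.15 for *Psmb10* and -3.93 for *Nlrc5*.

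All of these differences use the 3 *Rtel1* F/F +GFP libraries, which stand apart from the other *Rtel1*-floxed libraries. With RTEL1 C1252A/C1255A +GFP libraries in their place, the difference from RTEL1 C1252A/C1255A cells was -0.21 (*H2-K1*), 0.01 (*H2-D1*), -0.36 (*Tap1*), -0.10 (*Tap2*), 0.47 (*Tapbp*), -0.53 (*Psmb8*), -0.76 (*Psmb9*) and -0.81 (*Nlrc5*), with 0 of the 10 genes called by edgeR (4 at an unadjusted p under 0.05, 0 by DESeq2). The difference from *Terf1* F/F cells was -0.67 (*H2-K1*), -0.51 (*H2-D1*), -0.27 (*B2m*), -1.37 (*Tap1*), -1.21 (*Tap2*), -0.22 (*Tapbp*), -1.58 (*Psmb8*), -1.03 (*Psmb9*), -0.76 (*Psmb10*) and -1.94 (*Nlrc5*), with *Nlrc5* and *Tap1* called. These calls used no replicate block. With the block edgeR called 2 genes for the difference from RTEL1 C1252A/C1255A cells, *Tapbp* and *Psmb10*, both positive. For the difference from *Terf1* F/F cells it then called 5, all negative. The 2 positive calls compare *Rtel1* F/F +Cre with RTEL1 C1252A/C1255A +Cre libraries. Their replicate 3 libraries correlated at 0.05, not over 0.1, so replicate numbers do not clearly pair these groups. A technical feature of the 3 *Rtel1* F/F +GFP libraries and a biological state of those cultures cannot be told apart here. No other library holds *Rtel1* F/F cells with GFP alone.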

How the results depend on the processing

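Across the 10 comparisons, 568 of the log2 fold changes under the planned settings other than leaving out a library kept their sign and their side of the threshold, 21 passed it anew, 2 no longer passed and 8 changed sign. With 1 library left out these counts were 734, 4, 23 and 19, and with RTEL1 C1252A/C1255A +GFP as the control 7, 3, 18 and 22. With the added blocks they were 25, 6, 15 and 24. The cause was not tested for any of these changes.

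Taking RTEL1 C1252A/C1255A +GFP as the control, without / with a replicate block, 0 / 4 of the 10 genes were called after *Rtel1* loss, 0 / 2 with TMPyP4 and 10 / 10 between lines before Cre. Calls among all genes moved from 5902 to 1064 / 1725 and from 4114 to 2333 / 3916 for the first 2, and from 3450 to 590 and 4147 to 600 (with 0 and 2 of the 10 genes) for the Cre effect of *Rtel1* F/F cells minus that of RTEL1 C1252A/C1255A or *Terf1* F/F cells. Signs turned after *Rtel1* loss to 0.48 / 0.49 (*H2-K1*), 0.46 / 0.46 (*H2-D1*), 0.31 / 0.31 (*B2m*), 0.15 / 0.15 (*Tap1*), 0.036 / 0.051 (*Tap2*), 0.74 / 0.75 (*Tapbp*), 0.074 / 0.080 (*Psmb8*), 0.93 / 0.93 (*Psmb9*) and 0.58 / 0.58 (*Psmb10*), and with TMPyP4 to 0.18 / 0.19 (*H2-K1*), 0.080 / 0.086 (*H2-D1*), 0.26 / 0.26 (*B2m*), 0.64 / 0.64 (*Tapbp*), 0.42 / 0.44 (*Psmb8*), 0.71 / 0.71 (*Psmb9*) and 0.57 / 0.59 (*Psmb10*). They also turned for *Rtel1* F/F minus RTEL1 C1252A/C1255A cells, to 0.013 / 0.011 (*H2-D1*), 0.15 / 0.15 (*B2m*), 0.47 / 0.47 (*Tapbp*) and 0.58 / 0.58 (*Psmb10*), and between lines, to 2.78 / 2.84 (*Tap2*) and 1.24 / 1.26 (*Tapbp*).

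Values near 0 changed sign under planned settings. For *Psmb10* with RTEL1 C1252A/C1255A and Cre they were -0.0077 with DESeq2 size factors, -0.0088 without a filter, -0.0031 with a replicate block (-0.0018 over 4 groups), -0.0025 with only the groups compared and -0.0082 by DESeq2. *Psmb10* had -0.0035 with the block (-0.016 over 4 groups) for *Rtel1* F/F +Cre against TMPyP4-treated cells, and *H2-D1* had -0.0023 with the block and -0.0022 with only the groups compared between lines. With 1 library left out, values ranged, for *Rtel1* F/F +Cre against TMPyP4-treated cells, over -0.012 to 0.13 (*B2m*), -0.091 to 0.39 (*Tap2*), -0.026 to 0.28 (*Tapbp*), -0.0078 to 0.41 (*Psmb9*) and -0.20 to 0.29 (*Psmb10*). Under Cre with RTEL1 C1252A/C1255A they ranged over -0.12 to 0.45 (*Tap2*) and -0.25 to 0.25 (*Psmb10*), for *Terf1* F/F minus RTEL1 C1252A/C1255A cells over -0.23 to 0.52 (*Psmb9*), and between lines over -0.12 to 0.069 (*H2-D1*) and -0.18 to 0.053 (*Tap2*).

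For Cre with RTEL1 C1252A/C1255A, 1 gene was called at a threshold of 0.05, 1 by DESeq2 and 0 to 1 with 1 library left out. For *Terf1* F/F minus RTEL1 C1252A/C1255A cells the counts were 1 at 0.05, 1 with DESeq2 size factors, 1 by DESeq2 and 0 to 1 with 1 library left out. Among all genes, 2088 calls for *Rtel1* F/F +Cre against TMPyP4-treated cells became 3452 at 0.05 and 933 with only the groups compared. Cre with RTEL1 C1252A/C1255A had 150, then 416 at 0.05, 0 with only the groups compared, 337 by DESeq2 with all groups and 52 to 149 with 1 library left out. *Terf1* loss had 469, then 872 at 0.05 and 282 to 377 with 1 left out, and TMPyP4 2466 to 4110. The difference of *Rtel1* F/F and RTEL1 C1252A/C1255A cells had 3450, then 5229 at 0.05 and 2195 with only the groups compared. That of *Terf1* F/F and RTEL1 C1252A/C1255A cells had 85, then 195 at 0.05, 11 with only the groups compared, 189 by DESeq2 and 27 to 89 with 1 left out.

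Libraries of *Rtel1* F/F +GFP and the 4 groups they are directly compared with share only a replicate number, as do those of the *Terf1* groups (0.55, 0.36 and -0.10) and *Rtel1* F/F +Cre with RTEL1 C1252A/C1255A +Cre (0.74, 0.80 and 0.05), since at least 1 same-numbered correlation was not over 0.1. Among these, every library correlated best with its own number only for TMPyP4-treated with *Rtel1* F/F +GFP libraries (0.02, 0.05 and 0.13). With the number as a block, 9 of the 10 genes were called after *Rtel1* loss (7172 of all 13719 genes tested), 9 with TMPyP4 (5434) and 9 after *Terf1* loss (642). With RTEL1 C1252A/C1255A +GFP as the control and the block, 2 were called for the Cre effect of *Rtel1* F/F minus RTEL1 C1252A/C1255A cells (918 of all genes), *Tapbp* and *Psmb10*, both positive where the main difference was negative, and 5 for *Rtel1* F/F minus *Terf1* F/F cells (1030), *H2-K1*, *Tap1*, *Tap2*, *Psmb10* and *Nlrc5*, all negative. Where numbers pair libraries, the block over 4 groups called 2 genes for Cre with RTEL1 C1252A/C1255A (389 of all genes) and 1 for *Rtel1* F/F +Cre against TMPyP4-treated cells (3607), and beyond the calls named here and with results it changed no other call of the 10 genes. With 3 libraries per group, no uninfected cells and no empty vector, small changes and effects of virus or vector are out of reach, as are protein levels and peptide display.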
